A study of Homo sapiens with 4 samples.

Results

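CD antigen genes encode the surface proteins by which leukocytes are classified, and their names carry the prefix CD followed by a number. The members were all protein-coding RefSeq genes on chromosomes 1 to 22 whose symbol begins with CD and a digit, which gave 88 of 19122 protein-coding genes on those chromosomes. CD99, CD99L2 and CD40LG met the naming rule but lie on chromosome X and were left out. The symbol also takes in CD2AP and CD2BP2, intracellular proteins that bind the tail of CD2, and some tetraspanins, complement regulators and endothelial proteins that many tissues carry. The members are therefore not a leukocyte-restricted set.

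The peaks came from NB4, an established human line of acute promyelocytic leukemia, in which the PML/RARA fusion is present. CUT&Tag, a method that cuts and tags DNA beside an antibody's target with a tethered transposase, was run with an antibody against PPARα, with an antibody against PML/RARA, and with IgG beside each. The 4 libraries share the same cells, the labels name no drug or added agent, and each antibody has 1 peak list without replicates. The IgG libraries were not used here, and the sources used here do not give the epitope that the PML/RARA antibody binds. The lists hold 9829 PPARα and 46021 PML/RARA peaks, of which 9573 and 45085 lie on chromosomes 1 to 22. Read depth is unknown, so a gene without a peak is a gene at which none was called. No test was made on these lists: counts and medians stand beside those of other genes and describe these 2 libraries only.

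PML/RARA joins the promyelocytic leukemia protein to the retinoic acid receptor alpha, and it is known for holding promyelocytes at an immature stage. PPARα is a nuclear receptor that senses fatty acids. Both receptors bind DNA with a retinoid X receptor partner, at repeats of a shared half-site. Myeloid CD antigens change as a promyelocyte matures towards a granulocyte or monocyte. Lymphoid CD antigens mark T, NK and B cells, and PML/RARA leukemias do not derive from these. The peak lists record antibody-directed cuts and not expression. Of the granulocyte precursor genes that mark such cells, MPO had peaks of both antibodies at an end (PPARα fold 3.99, PML/RARA fold 9.26), AZU1 and PRTN3 had PML/RARA peaks only (11.5 and 5.22), and ELANE and CTSG had no end peak. HBB, HBA1 and ITGA2B of the erythroid and megakaryocyte lineages had no end peak of either list.

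PPARα peaks lay within 1 kb of an annotated end at 20 of the 88 CD genes (22.7%), against 6261 of 19034 other genes (32.9%), and the share over all genes was 32.8%. PML/RARA peaks lay there at 45 CD genes (51.1%), against 11208 other genes (58.9%), with 58.8% over all genes. All 20 CD genes with PPARα also had PML/RARA at an end, which is 100% of the PPARα genes and 44.4% of the PML/RARA genes. Among other genes 6189 had both, which is 98.9% and 55.2% of the same 2 sets, and both were present at 32.5% of all genes. That left 25 of the 88 CD genes with PML/RARA alone and 43 with neither, beside 5044 and 7797 of all 19122 genes. Each peak carries the authors' fold enrichment, a linear ratio over background, and a −log10 q. The folds of the PPARα and PML/RARA lists are not on a common scale. The median fold of the best end peak was 5.79 at CD genes and 7.08 at other genes for PPARα, and 11.6 and 14.2 for PML/RARA.

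The picture changed with distance. PML/RARA peaks lay at an end, in the body or within 20 kb of 81 CD genes (92%), against 80.2% of other genes and 80.3% of all genes. PPARα peaks did so at 42 (47.7%), against 54.5% of other genes and 54.5% of all. Inside the body and away from the ends, PML/RARA peaks were present at 38 CD genes (43.2%, against 37.3% of other genes and 37.3% of all) and PPARα peaks at 4 (4.55%, against 10.7% of other genes and 10.7% of all). CD genes are somewhat shorter than other genes, with a median of 19135 against 24523 bases. Among genes of 10 to 30 kb, PPARα marked the ends of 4 of 27 CD genes (14.8%) and of 34.9% of other genes. Among genes up to 10 kb the shares were 24% and 25%, and among longer genes 27.8% and 36.6%. For PML/RARA the order turned with length: 64% of CD genes and 50% of other genes were marked up to 10 kb, 44.4% and 64.5% from 10 to 30 kb, and 47.2% and 61% beyond. Only 2 of the 20 best PPARα end peaks were also at an end of another coding gene (10%, against 37.8% at other genes), CD68 with EIF4A1 and CD320 with NDUFA7. For PML/RARA it was 7 of 45 (15.6%, against 31.3%).

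CD genes sorted as myeloid, lymphoid or antigen-presenting and those sorted as broad differed in how often they were marked. The broad group is mixed and takes in leukocyte genes such as CD53 and a stromal gene, CD248. The members were sorted by textbook expression into 21 myeloid genes (with CD34 of blood progenitors among them), 24 lymphoid genes (18 of T and NK cells, 6 of B cells), 15 genes of antigen presentation and co-stimulation, 25 genes carried broadly on leukocytes or other tissues, and the 2 intracellular proteins, while CD300H was left unassigned. PPARα peaks lay at the ends of 2 of 21 myeloid genes (9.52%), 2 of 24 lymphoid genes (8.33%), 2 of 15 antigen-presentation genes (13.3%) and 12 of 25 broad genes (48.0%), against 32.8% of all genes. PML/RARA peaks lay at the ends of 8 myeloid (38.1%), 10 lymphoid (41.7%), 6 antigen-presentation (40.0%) and 19 broad genes (76.0%), against 58.8% of all genes. At their ends, myeloid and lymphoid members were thus marked in similar shares by either antibody, both below the share over all genes. The lymphoid PPARα count rested on weak peaks. When peaks under a −log10 q of 5 were dropped, PPARα was at 2 myeloid and 0 lymphoid genes, and dropping those under a fold of 5 gave the same counts. Both filters also removed the PPARα end peaks of the broad genes CD47 (−log10 q 1.79), CD81 (2.61), CD320 (3.14), CD248 (3.2) and CD59 (3.39). Of the 20 CD genes with PPARα at an end, 12 remained under the first filter and 13 under the second. The shares over all genes were not counted under these filters. With peaks in the body and within 20 kb counted, PPARα was at or near 7 myeloid (33.3%) and 14 lymphoid genes (58.3%), against 54.5% of all genes, and PML/RARA at or near 18 (85.7%) and 23 (95.8%), against 80.3%. Most of the lymphoid PPARα genes had peaks only away from the ends, 12 of the 14, and several of those peaks lay at an end of a neighbouring gene. The same held for 5 of the 7 myeloid PPARα genes. Over all genes, 4138 of the 10419 with PPARα at or near them had peaks only away from the ends. These lists are small, and several genes of a list lie side by side.

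**Figure D1:**
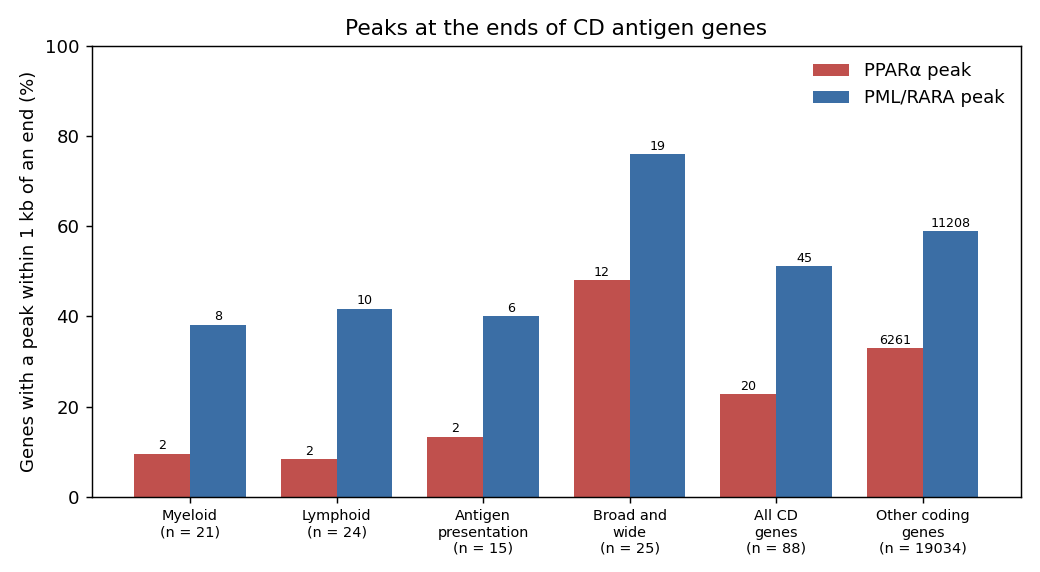
Bars give the percentage of genes with a PPARα (red) or PML/RARA (blue) peak within 1 kb of an annotated end, and the number over each bar counts the genes. Myeloid and lymphoid CD genes stand at 9.52% and 8.33% for PPARα, below the broad CD genes at 48.0% and the other coding genes at 32.9%.

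The presence of PPARα followed the strength of the PML/RARA peak, at CD genes as at others. The 20 CD genes with PPARα had a median PML/RARA fold of 17.4 (range 6.42 to 28.5) and a median peak width of 606 bases. The 25 without PPARα had a median fold of 7.89 (3.25 to 20.4) and a width of 267 bases. All genes with a PML/RARA end peak were divided by that fold into 4 groups of near equal size. In the lowest group, 4 of 19 CD genes also had PPARα (21.1%, against 19.2% of other genes), and in the second 5 of 10 (50%, against 51.6%). In the third it was 6 of 9 (66.7%, against 71.9%), and in the highest 5 of 7 (71.4%, against 78.1%). At like PML/RARA fold the CD genes therefore stood close to other genes. The lowest group held 19 of the 45 CD genes. By list, the median PML/RARA fold of marked genes was 10.5 for myeloid, 7.07 for T and NK, 8.41 for B, 15.8 for antigen presentation and 13.4 for the 25 broad genes. Within the broad genes it was 17.1 for those listed as broad on leukocytes and 9.85 for those of other tissues. Over the 20 genes with both, the folds of the 2 lists had a Spearman correlation of 0.546, and both come from the same cells.

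**Figure D2:**
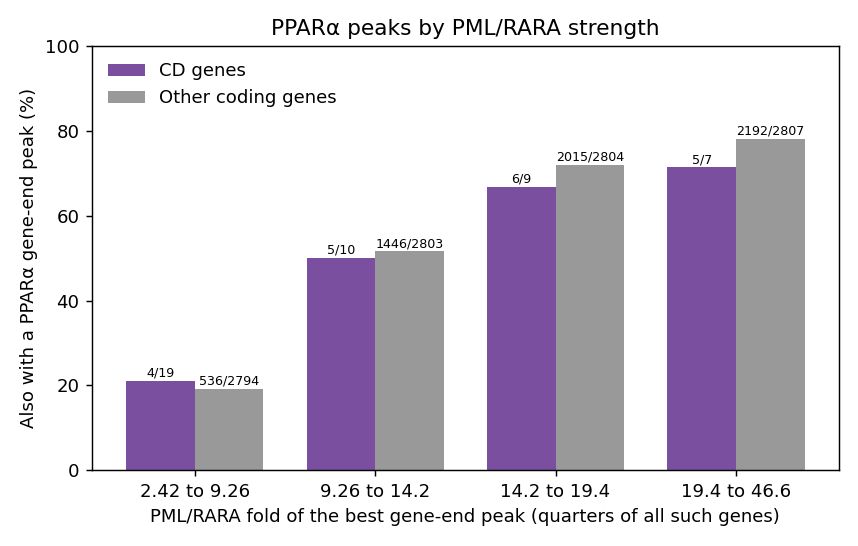
Bars give the percentage of genes with a PML/RARA end peak that also had a PPARα end peak, in 4 groups of near equal size by PML/RARA fold, for CD genes (purple) and other coding genes (grey), and the fractions over the bars are gene counts. The CD genes run from 21.1% in the lowest group to 71.4% in the highest, beside 19.2% and 78.1% of other genes.

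Promoters are given for CD33, CD38, CD55 and CD46, which have start-site peaks and were picked by rule. None of them is a lymphoid gene, so they cannot compare the myeloid and lymphoid lists. CD33 and CD38 are myeloid genes with PML/RARA alone at a start site, and CD55 and CD46 are the broad genes with the lowest sum of 2 ranks, each taken among the CD genes by the −log10 q of the best start-site peak of 1 antibody. Their RefSeq promoters (GRCh38.p14, the same assembly as hg38), each 300 bases from 250 before to 50 after a start site, read 5′ to 3′ on the gene's strand. Capitals mark AGGTCA (the nuclear receptor half-site), GGGCGG (the GC box), CCAAT, and GAGGAA, on either strand. GAGGAA contains GGAA, the core of many ETS factor sites, and is only 1 form of such a site.
CD33, chr19:51224830-51225129, plus strand: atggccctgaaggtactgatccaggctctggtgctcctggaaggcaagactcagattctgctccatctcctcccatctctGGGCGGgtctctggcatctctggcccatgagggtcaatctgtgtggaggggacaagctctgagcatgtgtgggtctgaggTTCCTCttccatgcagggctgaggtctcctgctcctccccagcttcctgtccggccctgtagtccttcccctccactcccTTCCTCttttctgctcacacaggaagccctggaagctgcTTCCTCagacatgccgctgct
CD38, chr4:15778078-15778377, plus strand: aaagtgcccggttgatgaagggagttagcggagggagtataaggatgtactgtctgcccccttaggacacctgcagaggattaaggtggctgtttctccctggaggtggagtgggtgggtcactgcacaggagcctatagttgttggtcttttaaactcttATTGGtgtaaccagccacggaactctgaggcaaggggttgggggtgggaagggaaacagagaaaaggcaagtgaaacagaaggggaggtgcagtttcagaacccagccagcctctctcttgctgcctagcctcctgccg
CD55, chr1:207321428-207321727, plus strand: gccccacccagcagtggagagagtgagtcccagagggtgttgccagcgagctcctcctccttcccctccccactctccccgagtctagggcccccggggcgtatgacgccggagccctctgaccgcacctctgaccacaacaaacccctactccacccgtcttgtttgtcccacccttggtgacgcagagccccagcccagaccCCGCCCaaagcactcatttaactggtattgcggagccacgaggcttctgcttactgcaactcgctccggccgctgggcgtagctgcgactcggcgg
CD46, chr1:207751788-207752087, plus strand: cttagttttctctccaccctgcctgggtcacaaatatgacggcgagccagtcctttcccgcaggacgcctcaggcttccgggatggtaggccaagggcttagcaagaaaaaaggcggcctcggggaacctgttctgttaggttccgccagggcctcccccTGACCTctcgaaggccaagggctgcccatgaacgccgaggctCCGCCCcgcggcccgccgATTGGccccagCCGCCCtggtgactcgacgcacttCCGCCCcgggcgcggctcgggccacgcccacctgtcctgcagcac
The CD33 window holds 3 GAGGAA matches and 1 GC box, and the CD38 window a single CCAAT match. The CD55 window holds 1 GC box. The CD46 window holds 3 GC boxes, 1 CCAAT and 1 AGGTCA. No 2 matches overlap. PML/RARA peaks covered 125 bases of the CD33 window, 264 of CD38, 300 of CD55 and 256 of CD46, and PPARα peaks covered 247 bases of CD55 and 128 of CD46.

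Over the 96 distinct promoter windows of the 62 CD genes that the table holds, GAGGAA was present in 45.8%, against 27.9% of 34943 windows in the whole table. GGGCGG was present in 37.5%, against 44.9%, CCAAT in 25%, against 34.6%, and AGGTCA in 11.5%, against 13.8%. GC boxes were present in 3 of 21 myeloid (14.3%), 3 of 19 lymphoid (15.8%), 5 of 17 antigen-presentation (29.4%) and 22 of 36 broad windows (61.1%). GAGGAA was in 12 of 21 myeloid (57.1%), 10 of 19 lymphoid (52.6%), 6 of 17 antigen-presentation (35.3%) and 14 of 36 broad windows (38.9%). AGGTCA was in 0 of 21 myeloid, 1 of 19 lymphoid, 4 of 17 antigen-presentation (23.5%) and 6 of 36 broad windows (16.7%). Among windows of CD genes with a PPARα peak at a start site, 18 of 31 held a GC box (58.1%), against 18 of 65 of the rest (27.7%). For PML/RARA it was 25 of 50 (50%), against 11 of 46 (23.9%). GAGGAA was in 45.2% of the windows with a PPARα start-site peak, against 46.2% of the rest, and in 40% with PML/RARA, against 52.2%. CCAAT was in 22.6%, against 26.2%, for PPARα and in 24%, against 26.1%, for PML/RARA. AGGTCA was in 16.1%, against 9.23%, for PPARα and in 14%, against 8.70%, for PML/RARA. The split by start-site peak was made for CD genes only, so it does not set them apart from other genes. A gene can have several overlapping windows: the 31 windows with PPARα belong to 15 genes and the 50 with PML/RARA to 28. A match of letters is no evidence of binding.

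Among the myeloid members, CD38, the surface NAD glycohydrolase that retinoic acid is known to induce in promyelocytic cells, had PML/RARA at its start and at 4 places in its body. The first peak, of fold 16.0 (chr4:15778114-15779201), ran from before the start site into the gene, with its summit 792 bases downstream of the start. Further PML/RARA peaks lay inside the gene with folds of 3.71, 8.13, 5 and 18.5. The strongest of these, 54628 bases from the start (chr4:15832830-15833176), was overlapped by the only PPARα peak of the locus, of fold 5.60 and −log10 q 4.73. Another PML/RARA peak, of fold 7.94, lay 3994 bases upstream at an end of the neighbouring BST1, a related enzyme gene.

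CD33, a sialic acid-binding receptor of myeloid cells, had no peak at its outer annotated ends. The start site in the promoter table lies inside the annotated span, and there a PML/RARA peak of fold 13.4 (chr19:51225005-51225344) had its summit 30 bases downstream of the start and 14034 bases from the left end. Other PML/RARA peaks within 20 kb had folds of 13.1, 13.0 and 6.77, and PPARα had none. CD14, the monocyte receptor for lipopolysaccharide, had no peak at its ends or in its body. Upstream of it, PPARα and PML/RARA peaks overlapped at 2 places. At the nearer (chr5:140639157-140639812 for PML/RARA), the summits lay at -6364 bases from the start site for PPARα and -6210 for PML/RARA, and PPARα had a fold of 6.81 where PML/RARA had 25.8. This peak was at the end of no coding gene. The farther one (folds 7.40 and 26.7) lay at ends of TMCO6, NDUFA2 and IK.

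**Figure D3:**
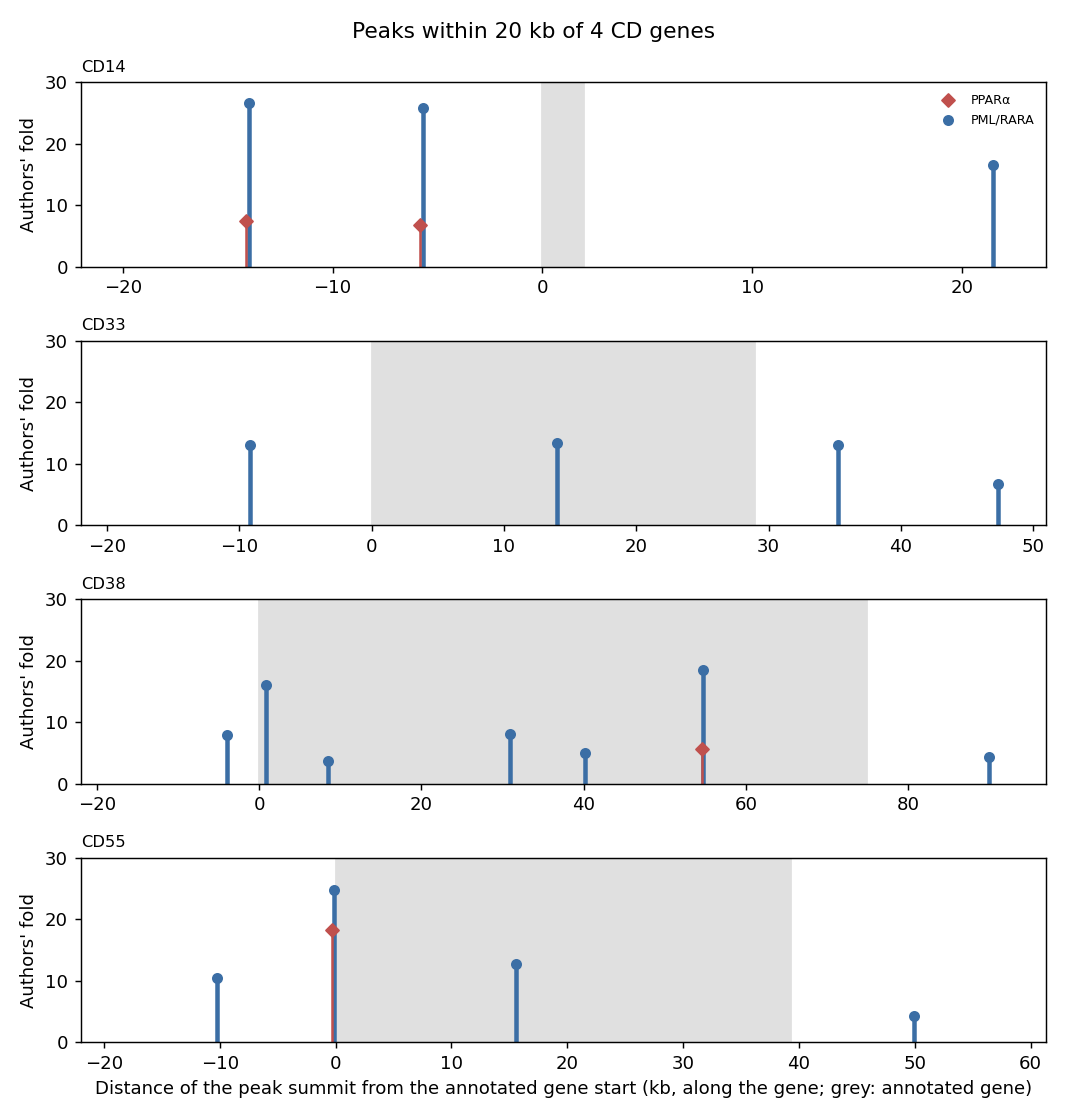
Each panel shows the peaks within 20 kb of 1 gene, as the distance of the summit from the annotated gene start in kb (horizontal) and the authors' fold (vertical, not on a common scale between antibodies); the gene is grey, PPARα peaks are red diamonds and PML/RARA peaks blue circles. CD55 carries both at its start (18.3 and 24.8), CD38 both only deep in the gene (5.60 and 18.5), CD14 both only upstream, and CD33 PML/RARA alone.

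The 2 myeloid genes with PPARα at an end were CD68 and CD300LB. CD68, a macrophage lysosomal glycoprotein, had a PPARα fold of 5.80 and a PML/RARA fold of 10.8, in peaks that lay also at the end of the translation factor gene EIF4A1, so the gene they belong to cannot be told apart. CD300LB, an activating receptor of myeloid cells, had PPARα peaks at both ends, of fold 6.66 near its start and 4.72 near its finish. PML/RARA peaks of fold 19.0 and 13.2 overlapped them.

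The remaining marked myeloid genes had PML/RARA alone at an end, and the folds were modest. CD300LF (10.6) and CD300C (10.4) belong to the same receptor family as CD300LB, CD302 (7.85) is a lectin of phagocytes, CD93 (7.19) is a receptor of myeloid and endothelial cells, and CD101 (5.71) is an immunoglobulin-family protein of myeloid and T cells. At CD302 and CD93 the summit lay within 67 and 8 bases of an annotated end. At CD101 the end peak was at the finish, and a pair of overlapping peaks lay inside, 1745 bases (PPARα, fold 7.48) and 1635 bases (PML/RARA, fold 10.9) from the start.

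Other myeloid genes had peaks only away from their ends. CD163L1, a scavenger receptor gene, held a PML/RARA peak of fold 26.4 deep inside (chr12:7369336-7369662) and a second of fold 16.3. CD300A, an inhibitory receptor, had PML/RARA peaks of fold 9.76 and 3.86 in its body, CD300E 11.1 and CD300LD 4.12. CD34, the progenitor sialomucin, had only 3 PML/RARA peaks beyond its left end, of fold 6.03, 5.56 and 4.63. CD163, the haptoglobin-hemoglobin scavenger receptor, had 1 PML/RARA peak within 20 kb (12.6), CD200R1, an inhibitory receptor, had 1 at an end of GTPBP8 (12.2), and CD200R1L had 2 (10.1 and 7.44). Neither list had a peak within 20 kb of CD36, the fatty acid translocase, CD177, a neutrophil surface protein, or CD5L, a protein secreted by macrophages.

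The CD300 receptor genes share a cluster of 249 kb on chromosome 17 (chr17:74465373-74713923, with 1 kb on each side), and it held 4 PPARα and 26 PML/RARA peaks. At their ends, 1 of its 7 members had PPARα and 3 had PML/RARA. The strongest PML/RARA peak, of fold 25.2 (chr17:74512487-74513111), lay between CD300A and CD300LB at an end of neither. The strongest PPARα peak, of fold 7.67 (chr17:74569102-74569657), lay between CD300H and CD300LD, inside a PML/RARA peak of fold 19.7. A PPARα peak of fold 4.92 was among the 4 PPARα peaks near members that overlapped no PML/RARA peak. The cluster also holds RAB37, at whose end a PML/RARA peak of fold 23.2 lay.

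**Figure D4:**
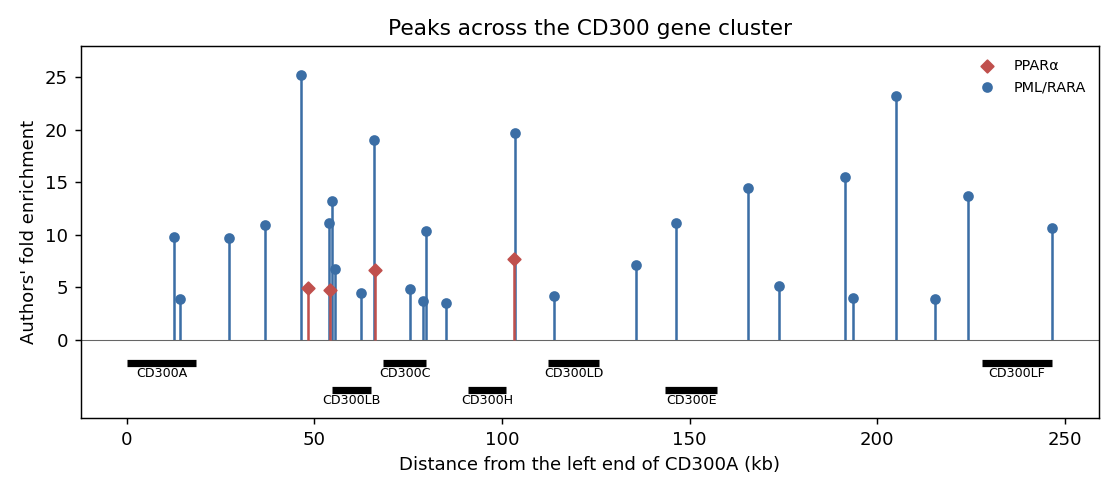
Peak summits across the CD300 cluster, as the distance from the left end of CD300A in kb (horizontal) and the authors' fold (vertical, not on a common scale between antibodies), with PPARα as red diamonds, PML/RARA as blue circles and genes as black bars. The 4 PPARα peaks lie between 48.16 and 103.17 kb, and the 26 PML/RARA peaks spread over the whole cluster.

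Among the T and NK cell genes, CD244 had the PML/RARA end peak of highest −log10 q (61.0, against 52.7 at CD3E). CD3E, a signalling chain of the T cell receptor complex, had the one of highest fold, 19.4 (chr11:118316702-118316952). The CD3E peak lay 529 bases beyond the gene's right end and was the only peak in the 52.4 kb that hold CD3E, CD3D and CD3G. CD3D and CD3G had none of their own, and the PPARα peak within 20 kb of them (5.14) lay at an end of UBE4A. CD244, an NK cell receptor of the SLAM family, had both antibodies at its start, PPARα with a fold of 4.22, PML/RARA with 18.2 and a summit 54 bases downstream. CD8A, the co-receptor chain of cytotoxic T cells, had both with the weakest values, a PPARα fold of 3.30 at −log10 q 1.47 and a PML/RARA fold of 7.07 at 7.86. Its partner CD8B, within 20 kb of the same peaks, had none at its own ends.

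PML/RARA alone lay at ends of CD4 (7.52), the helper T cell co-receptor, CD27 (5.53), a TNF receptor family member, CD2 (4.28), an adhesion receptor, and CD7 (3.25). The CD4 peak was shared with GPR162 and the CD27 peak with TAPBPL. The CD2 peak lay 584 bases beyond the finish of the gene. In fold, CD4 exceeded 50.8% of the PML/RARA peaks, CD27 32.3%, CD2 14.9% and CD7 2.07%. CD6, a T cell scavenger receptor family member, had no end peak but an overlapping pair inside, of fold 6.42 for PPARα and 16.1 for PML/RARA (chr11:60978916-60979422). CD5, its neighbour, had a PML/RARA peak of fold 3.93 inside. The T cell receptor zeta chain gene CD247 (5 at both peaks), the co-stimulatory receptor gene CD28 (5), CD160 (7.35 and 5.34) and CD8B2 (14.4 and 13.3) had PML/RARA peaks inside the gene and none at an end. The adhesion receptor gene CD226 had a PML/RARA peak outside the gene (7.14), and CD96 had both antibodies outside it, at an end of PLCXD2 (PPARα 5.36, PML/RARA 16.8).

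Among the B cell genes no PPARα peak lay at an end. PML/RARA peaks lay at ends of CD72 (11.6), an inhibitory co-receptor, and of CD79A (8.41) and CD79B (7.89), the signalling chains of the B cell receptor. The CD72 end peak was at an outer annotated end, with its summit at -28472 bases from the start site in the promoter table. That start site lies inside the annotated span. A PML/RARA body peak of fold 3.89 and −log10 q 4.91 had its summit 11 bases downstream of it. At CD79A, 3 PML/RARA peaks overlapped the 1 kb around the start, the best with its summit 240 bases upstream. CD180 had 2 PML/RARA peaks outside the gene (5 and 9.90), and CD22 had no peak of either list within 20 kb.

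The highest end-peak folds among members were at broad genes, but the broad genes were not highest as a group. Their median PPARα fold was 5.76 over 12 genes, against 6.23 for myeloid and 6.94 for antigen-presentation genes, of which only 2 each had a PPARα end peak. Their median PML/RARA fold was 13.4, against 15.8 for antigen presentation. That 13.4 joins unlike parts: the 11 marked genes listed as broad on leukocytes had a median of 17.1, and the 8 marked genes of other tissues had 9.85. CD55, which protects cells from complement by accelerating the decay of its convertases, had the highest PPARα fold among the end peaks of members, 18.3 at −log10 q 84.6 (chr1:207321060-207321674), higher than 99.8% of PPARα peaks. Its PML/RARA peak had a fold of 24.8 and the highest −log10 q among the end peaks of members, 313. The summits lay 329 bases upstream of the start site for PPARα and 168 bases upstream for PML/RARA. CD46, a complement cofactor on the same arm of chromosome 1, had the highest PML/RARA fold among the end peaks of members, 28.5, with a PPARα fold of 6.72. CD59, which blocks the membrane attack complex, had folds of 4.90 and 8.28.

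CD58, the ligand of CD2, was marked by both antibodies at both ends. At its start the folds were 10.2 for PPARα and 19.6 for PML/RARA, and at its finish 7.81 and 22.8. CD84, a SLAM family receptor, had folds of 6.99 and 27.5 beside its left end, with summits 6 bases apart. CD47, the signal that restrains phagocytosis, had folds of 3.83 and 17.1, and its PPARα −log10 q of 1.79 stood just over 1.32, the minimum among PPARα peaks. CD320, the receptor for transcobalamin, had 4.33 and 17.8. The tetraspanins CD82 (5.64 and 13.5) and CD63 (5.87 and 11.7) had both, and CD9 (6.85) and CD151 (8.03) had PML/RARA alone. CD81, a widely carried tetraspanin, had a PPARα peak of 4.41 and a PML/RARA peak of 6.42 at the same end that did not overlap. CD164, a sialomucin, had 9.46 and 13.0, and CD248, a stromal glycoprotein, 3.91 and 13.4. CD82 also had the most PML/RARA peaks in its body, 6, followed by CD9 with 5 and CD38 with 4, and CD53, CD48, CD244, CD6, CD4, CD86 and CD72, 7 genes, had 3 each.

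Broad genes with PML/RARA but no PPARα at an end were CD52 (PML/RARA fold 15.9, shared with CRYBG2), CD37 (11.6, shared with SLC6A16 and TEAD2), CD48 (5.66), CD164L2 (3.66) and CD300LG (19.1), besides CD9 and CD151. CD44, the hyaluronan receptor, and CD53, a leukocyte tetraspanin, had PML/RARA peaks inside the gene but none at an end, up to fold 13.2 at CD44 and 16.4 at CD53. CD69, an early activation antigen, and CD200, the ligand of CD200R1, had PML/RARA peaks only outside the gene, 2 and 1. CD24 and CD109 had no peak within 20 kb. With CD36, CD177, CD5L, CD22 and CD1E they were the 7 members of which this held. The adaptors CD2AP (5.75 and 8.69) and CD2BP2 (5.77 and 17.7) had both antibodies at a start site.

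Of the antigen-presentation genes, CD1B, a presenter of lipids, carried PPARα (6.88) and PML/RARA (20.8) near its left annotated end, and this was the only PPARα peak in the 182 kb of the CD1 genes. The annotated span of CD1B runs over the whole of CD1C, and no start site was known for CD1B. The same summits lay 3944 (PPARα) and 3973 bases (PML/RARA) upstream of the CD1C start site, so the gene they belong to cannot be told apart. CD70, the ligand of CD27, had 6.99 and 17.6. CD83 (20.4), a marker of mature dendritic cells, CD274 (14.0), which encodes PD-L1, CD80 (5.71), a ligand of CD28, and CD1A (3.57) had PML/RARA alone. At CD274 and CD83 its summit lay 31 and 111 bases upstream of a start site. CD86 and CD74 had PML/RARA peaks inside the gene and none at an end.

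**Figure D5:**
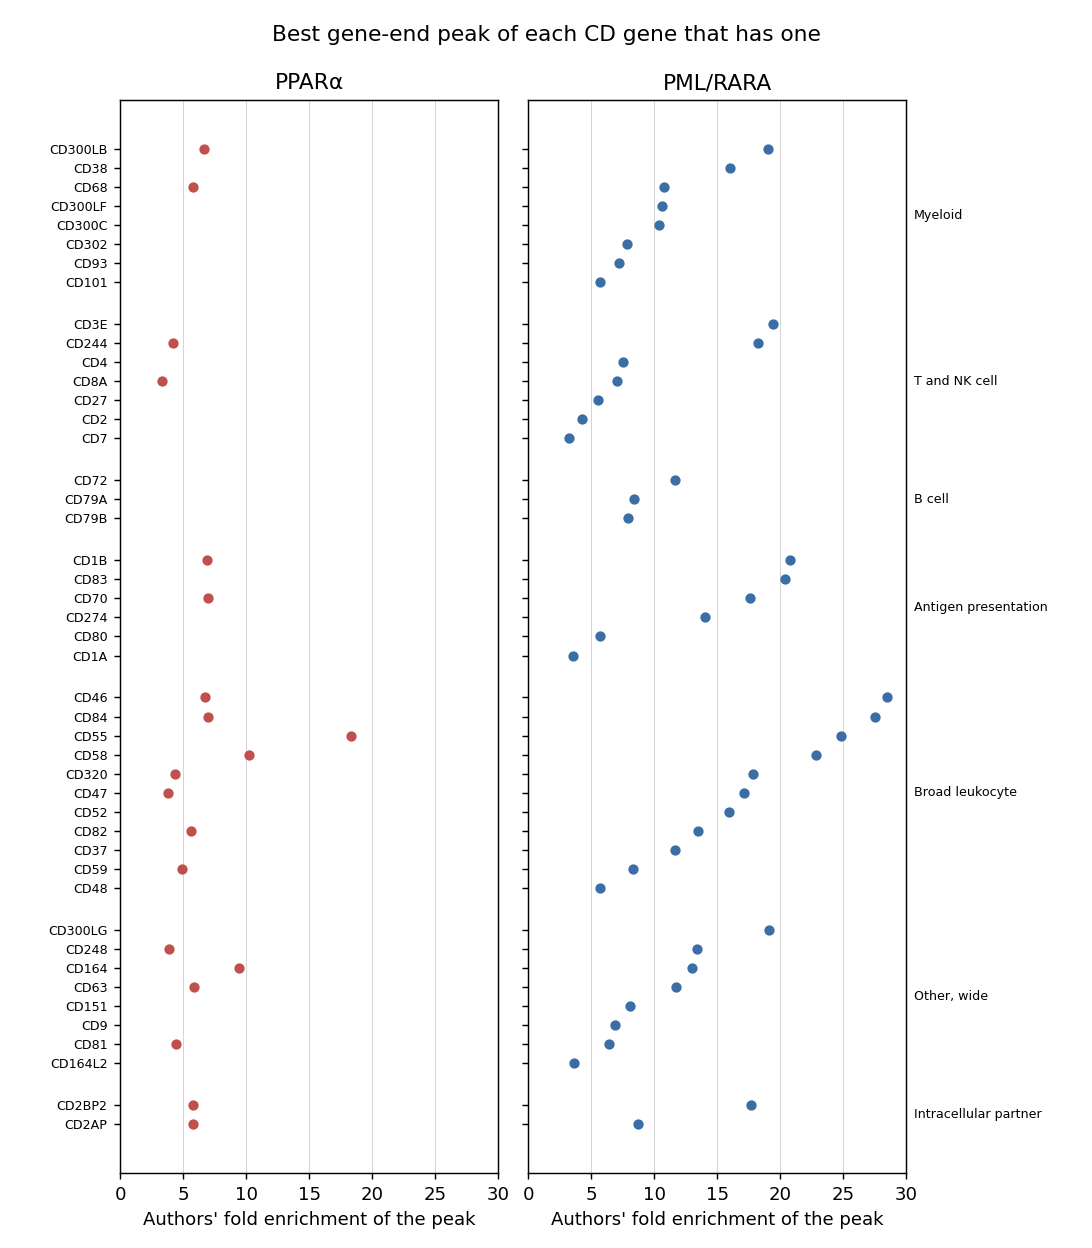
Each row is 1 of the 45 CD genes with an end peak, grouped by list, and points give the authors' fold of the best end peak for PPARα (left, red) and PML/RARA (right, blue), on scales that are not comparable between panels. PPARα points are sparse among myeloid and lymphoid genes, and the highest values, 18.3 and 28.5, belong to CD55 and CD46.

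The 58 PPARα peaks at or within 20 kb of CD genes mostly coincided with PML/RARA. Of these, 54 overlapped PML/RARA by 1 base or more (93.1%, exact 95% binomial interval 83.3 to 98.1, for counting error only), against 90.0% of the 9515 PPARα peaks elsewhere. Of the 304 PML/RARA peaks there, 59 overlapped PPARα (19.4%, 15.1 to 24.3), against 21.3% elsewhere. At the ends, 22 PPARα peaks belonged to CD genes and 4 lay in their bodies. Of the 32 that lay only within 20 kb, 23 were at an end of another coding gene. Of the 162 such PML/RARA peaks, 55 were. The like shares for peaks elsewhere were not counted. From the best PPARα end peak of each of the 20 genes to the nearest PML/RARA summit was 232 bases in the median (range 6 to 557), against 177 bases at other genes. Where the table gives start sites, the best PPARα end peak overlapped the window of 1 kb around a start site at 15 of 15 CD genes. The best PML/RARA end peak did so at 24 of 30. Neither share was counted over other genes, so these counts are not a trait of CD genes.

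CD antigens that carry other gene symbols gave a wider view of the same lineages. Of 34 myeloid genes of this kind, 7 had PPARα (20.6%) and 17 had PML/RARA (50%) at an end. Of 28 lymphoid genes, 1 had PPARα (3.57%) and 8 had PML/RARA (28.6%). The myeloid genes with both were ICAM1 (PPARα fold 6.95, PML/RARA fold 16.2), an adhesion ligand, FUT4 (7.97 and 14.5), which makes the CD15 epitope, ITGAX (5.85 and 12.0), an integrin chain, FCGR2A (5.38 and 27.5), an IgG receptor whose peaks were shared with HSPA6, TFRC (5.17 and 20.6), the transferrin receptor, SELPLG (4.73 and 9.16), a selectin ligand, and PECAM1 (3.71 and 9.57). The lymphoid gene with both was LAG3 (7.34 and 16.9). ANPEP, which encodes CD13, had a strong PML/RARA peak alone, of fold 19.6 at −log10 q 248. SPN, a pan-leukocyte sialomucin, had both (4.70 and 5.96), and PTPRC, which encodes CD45, had no end peak.

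Put together with the members, 9 of 55 myeloid CD antigen genes had PPARα at an end (16.4%), against 3 of 52 lymphoid ones (5.77%), and 25 (45.5%) against 18 (34.6%) had PML/RARA. Both shares were below those over all genes, 32.8% and 58.8%. The myeloid list of other symbols includes genes that many cell types carry, such as TFRC, ICAM1, PECAM1 and SELPLG, whereas such members stand in the broad list, so the lists are not sorted alike. With any peak within 20 kb counted, PPARα was near 23 of the 55 myeloid genes (41.8%) and 21 of the 52 lymphoid genes (40.4%), against 54.5% of all genes. PML/RARA was near 42 (76.4%) and 45 (86.5%), against 80.3% of all genes.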

How the data were processed

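Peak positions on hg38 came from the 2 deposited lists. Per the submitters' processing notes, the tools included MACS 1.4.2, bedtools, Bowtie2 2.2.9 and SAMtools, with no roles stated. How the IgG controls entered is not stated there. The deposited fold ratio, −log10 p and −log10 q values, the integer score and the summit offset of each peak are the authors'. Fold and −log10 q were used as ranks or levels within each list. The lowest −log10 q was 1.32 for PPARα and 1.30 for PML/RARA. The shortest peaks were 301 and 103 bases.

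Genes, ends and start sites came from RefSeq tables of GRCh38.p14. An end peak overlapped the 1 kb on either side of either annotated end; a body peak overlapped only the gene; the rest were counted within 20 kb. Of several end peaks, that with the highest −log10 q is given. Start sites were known for 62 of 88 members. Python 3.11.15, pandas 2.3.3 and scipy 1.17.1 were used, and the classification was tested on simulated data. The members, lists and rules were chosen with earlier results of these data known. Genes named are members with a PPARα end peak, myeloid and lymphoid members, the 10 strongest PML/RARA end peaks, the 5 genes with most body peaks (7 genes tied at 3), and CD antigens under other symbols with PPARα or the 5 strongest PML/RARA end peaks. Further members named were chosen after their values were seen. Some genes that this rule names are not reported here.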

Additional observations from a re-analysis of the deposited data

How the results depend on the processing

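Of 55 recalculations over 10 results, 33 stayed within 1.5 times the value reported (for the overlap share, within its interval) and 22 did not. With peaks of −log10 q of at least 5, PPARα end peaks remained at 12 CD genes, 12 with both antibodies, and at 0 lymphoid genes. With fold of at least 5 these were 13, 13 and 0. Either filter put the share of PPARα peaks overlapping PML/RARA at 100%. Windows of 5 kb gave PPARα at 4 myeloid and 5 lymphoid genes, and PML/RARA at 13 and 16. Cut to as many peaks as the PPARα list holds, the strongest PML/RARA peaks marked 21 CD genes at an end, 3 of them myeloid and 2 lymphoid, lay within 20 kb of 40, and overlapped 65.5% of the PPARα peaks. With start sites only, which 62 members have, PML/RARA marked 28 members, with CD33 now among them. These were 5 of the 15 myeloid and 4 of the 15 lymphoid genes with a known start site. The overlap share was 55.2% for summits within 200 bases and 79.3% where at least 50% of the PPARα peak was covered. The order of the myeloid and lymphoid counts thus moved with the setting for both antibodies. No paired analysis was possible because each antibody has 1 peak list, and for the same reason no replicate could be left out. Depth is unknown and limits every count of genes without a peak.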
